A study of Mus musculus with 8 samples.

Results

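The 30 genes described here make, sense, take up, move and export cholesterol in the mouse liver. They were picked by symbol from a table of 49671 genes, and comprise 16 enzymes of synthesis, 1 prenyl branch enzyme, 4 genes of SREBP2 control, 4 of uptake and lysosomal release, 2 of transport and esterification, and 3 exporters. All 30 were found and all 30 passed the filter on low counts, which left 13117 genes for testing. Liver RNA was sequenced from C57BL/6 mice of post weaning age, male and female, that were either wild type (WT) or NT-KO, with 2 libraries in each of the 4 groups. NT-KO mice carried on both copies of Lbr a CRISPR/Cas9 deletion that removed the normal start codon. The paper predicted either a full knockout or a shortened protein without the Tudor and RS domains. Its Western blot and mass spectrometry favoured a shortened protein made from a later start. The line went back to a single male founder crossed to C57BL/6N females. Lbr encodes the lamin B receptor, an inner nuclear membrane protein whose C-terminal part is a sterol reductase of the later cholesterol pathway. Its RNA was still present in NT-KO livers, at 13.8 and 14.7 CPM in males and 14.1 and 15.2 CPM in females, against 8.66 and 7.08 CPM in male WT and 8.04 and 7.54 CPM in female WT.

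The libraries held from 45020377 to 64396291 counts, and the 30 genes together took from 0.214% to 0.436% of them. CPM are counts per 1000000 counts of the tested genes, after TMM scaling of the library totals. All 8 hepatocyte markers were expressed, with a summed level of 84310.2 to 122957 CPM per library. The libraries of a group were labelled as separate samples with no statement of the animals behind them, so the p-values below measure the spread between these samples. In whole liver, fewer cells of a type and less RNA per cell cannot be told apart. The hour of collection and the feeding state were not given in the sources used here.

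Cholesterol is built from acetyl-CoA through mevalonate and squalene, and nearly every enzyme of the route is transcribed under SREBP2. SREBP2 is held in the endoplasmic reticulum by Scap and the Insig proteins when membrane sterol is high, and is released to the nucleus when sterol is low. Export runs the other way, since oxysterols that accumulate with cholesterol activate LXR, which raises the transporters Abca1, Abcg5 and Abcg8. The liver is a main site of all 3 processes and sends cholesterol into bile as such and as bile acids.

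Per length, as CPM divided by kilobases of exon and averaged over the 8 libraries, the 30 genes spanned from 124 for Insig1 to 1.42 for Ggps1. Ebp and Sc5d, isomerase and desaturase of the last steps, were next to Insig1 at 114 and 105 on this per-length scale. Acat2, Hmgcs1, Abcg5, Msmo1, Cyp51, Pmvk, Fdft1 and Nsdhl lay between 31.4 and 43.9, and the group means of each gene spread more widely than the steps between these neighbours. Srebf2, which encodes SREBP2, was among the lowest at 5.24 on the same scale, above only Mylip at 2.27 and Ggps1.

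The synthesis genes varied among the 8 libraries by more than most genes. The CPM of the highest library exceeded that of the lowest by a median of 3.03 fold over the 16 synthesis genes, against 1.71 fold over all tested genes, and by over 2 fold in 15 of the 16, against 32.9% of all tested genes. The widest span was 5.44 fold, for Idi1, followed by Mvd and Hmgcs1 at 5.06 and 4.92 fold. Ebp spanned 1.67 fold and Ggps1, which makes geranylgeranyl diphosphate for protein prenylation rather than sterol, 1.31 fold.

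The enzymes are given in the order of the route. Acat2, which condenses acetyl-CoA, had 83.6 and 70.3 CPM in WT against 82.5 and 158 CPM in NT-KO for males, and 105 and 133 CPM against 144 and 119 CPM for females. Hmgcs1, the cytosolic HMG-CoA synthase, had 65.6 and 85.04 CPM in the WT males and 98.5 and 323 CPM in the NT-KO males, beside 221 and 254 CPM in the WT females and 294 and 219 CPM in the NT-KO females. Both male WT libraries and male NT-KO replicate 1 were the lowest for Hmgcs1, male NT-KO replicate 2 was the highest, and the female groups overlapped. The 3 steps from mevalonate to isopentenyl diphosphate are run by Mvk, Pmvk and Mvd. Pmvk had 29.2 and 29.9 CPM in WT against 39.5 and 100.2 CPM in NT-KO for males, and 50.2 and 78.2 CPM against 81.2 and 56.5 CPM for females. Mvd had 11.04 and 22.00 CPM in the WT males and 10.9 and 26.6 CPM in the NT-KO males, beside 32.7 and 29.2 CPM in the WT females and 54.99 and 23.3 CPM in the NT-KO females. In Pmvk the NT-KO males lay above the WT males, while in Mvd they overlapped and female NT-KO replicate 1 was highest. Mvk was lower throughout, with 11.5 ± 0.394 CPM (SD, n = 2) in the WT males and 16.5 ± 3.64 in the NT-KO males, and with 18.6 ± 1.36 and 21.2 ± 7.53 in the WT and NT-KO females.

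Idi1, the isomerase that supplies dimethylallyl diphosphate, had 48.6 and 40.5 CPM in WT against 26.99 and 147 CPM in NT-KO for males, and 27.6 and 55.8 CPM against 53.2 and 56.4 CPM for females. Male NT-KO replicate 2 stood apart from the other 7 libraries, which lay between 26.99 and 56.4 CPM, and its level was 5.44 times that of the other male NT-KO library. Fdps, the farnesyl diphosphate synthase, had 30.6 and 41.6 CPM in the WT males and 35.5 and 99.3 CPM in the NT-KO males, beside 52.2 and 67.1 CPM in the WT females and 90.6 and 35.8 CPM in the NT-KO females. Fdft1, the squalene synthase and first committed step to sterol, had 75.4 and 76.8 CPM in WT against 122 and 179 CPM in NT-KO for males, and 139 and 163 CPM against 206 and 164 CPM for females. Fdft1 was lowest in the 2 male WT libraries, and in each sex both NT-KO libraries lay above both WT libraries. Reads of Acat2, Idi1, Fdps and Fdft1 are uncertain in part, since 39.1%, 25.3%, 26.2% and 26.5% of their 50-base exonic stretches also occur in another annotated gene: Acat3 for Acat2, a processed pseudogene for Idi1, the overlapping same-strand model Gm43738 for Fdps and the overlapping opposite-strand gene Ctsb for Fdft1. For Hmgcs1 the share was 11.6%, mostly in an antisense model. The strand setting of the counting was not given in the sources used here.

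From squalene onwards the same libraries stood out. Sqle, the squalene epoxidase, had 36.1 and 63.7 CPM in the WT males and 42.5 and 109.8 CPM in the NT-KO males, beside 97.6 and 83.5 CPM in the WT females and 151 and 62.6 CPM in the NT-KO females. Msmo1, which takes methyl groups off the sterol ring, had 119 and 131 CPM in WT against 202 and 391.7 CPM in NT-KO for males, and 238 and 241 CPM against 307 and 229 CPM for females. Sc5d, the desaturase of the last steps, had 331 and 295 CPM in the WT males and 384 and 844 CPM in the NT-KO males. In females it had 363 and 702 CPM in WT and 598 and 564 CPM in NT-KO. Msmo1 and Sc5d were higher in both NT-KO males than in both WT males, while for Sqle male NT-KO replicate 1 lay between the 2 WT males. Lss, the cyclase, ranged over the 8 libraries from 40.3 to 104 CPM, Cyp51, the lanosterol demethylase, from 113 to 251 CPM, Nsdhl from 50.8 to 139.9 CPM and Hsd17b7 from 29.2 to 93.6 CPM. All 4 were lowest in a male WT library and highest in male NT-KO replicate 2. Ebp, the sterol isomerase, differed from these in its order, with 226 and 212 CPM in WT against 218 and 228 CPM in NT-KO for males, and 279 and 309 CPM against 354 and 280.5 CPM for females. Every female library was above every male library for Ebp, and the 2 genotypes overlapped in both sexes.

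**Figure D1:**
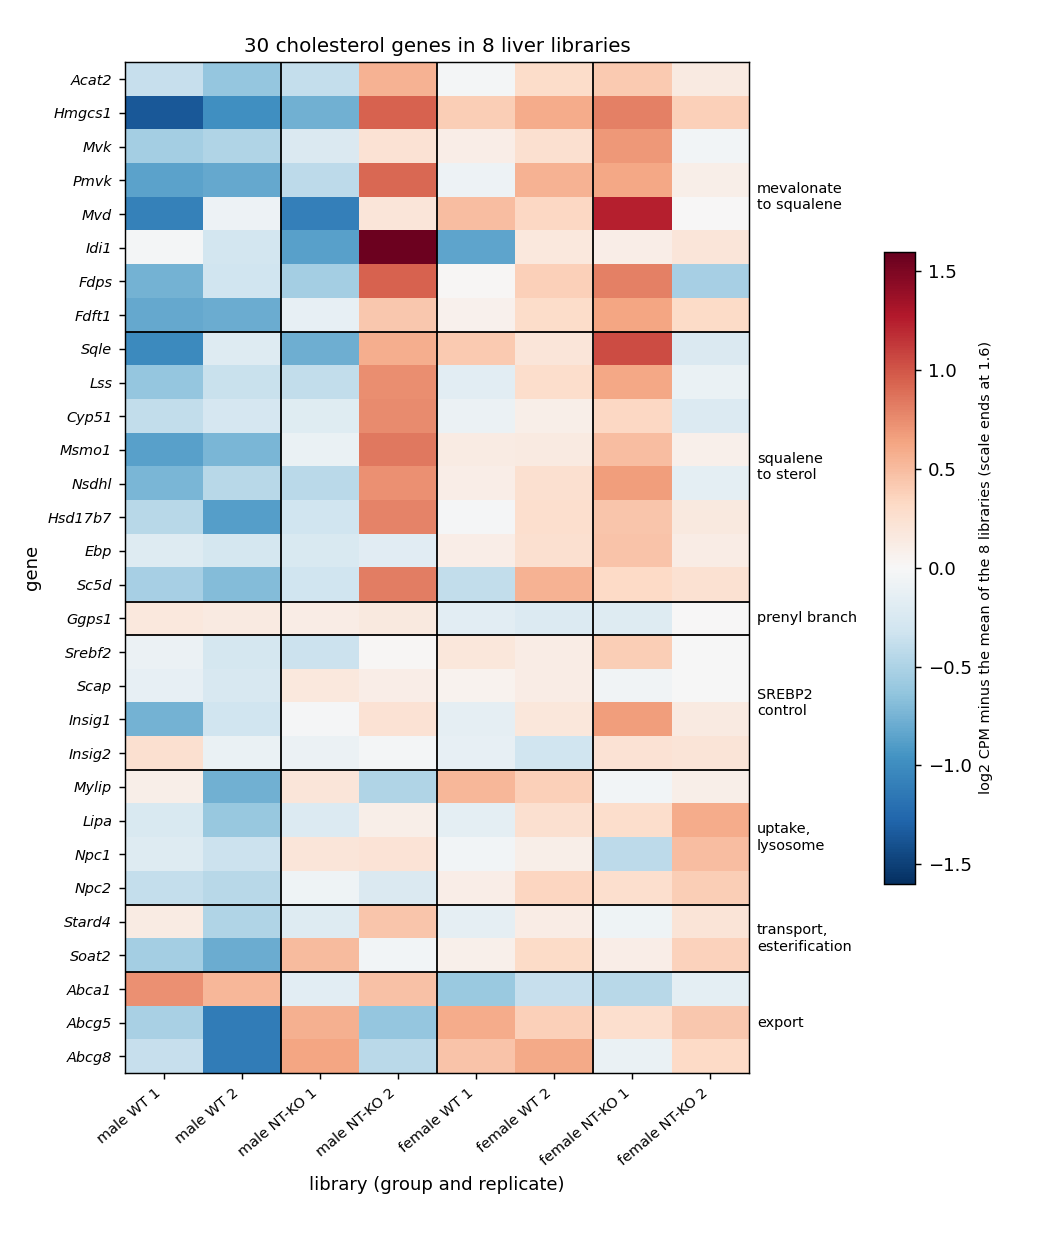
Log2 CPM of the 30 genes (rows, grouped by role) in the 8 liver libraries (columns), each gene relative to its own mean over the 8 libraries, in colour from blue (lower) to red (higher). Most of the 16 synthesis genes in the upper blocks are blue in both libraries of male WT and in replicate 1 of male NT-KO and red in replicate 2 of male NT-KO and replicate 1 of female NT-KO, while Abcg5 and Abcg8 at the bottom are red in male NT-KO replicate 1.

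Of the 16 synthesis genes, 11 had their highest level in male NT-KO replicate 2 and the other 5 in female NT-KO replicate 1. For the lowest level, 10 were in male WT replicate 1, 4 in male WT replicate 2 and 2 in male NT-KO replicate 1. The summed level of the 16 genes was 1311 and 1344 CPM for the WT males, 1559 and 3212 for the NT-KO males, 1959.8 and 2536 for the WT females and 2850.3 and 2149 for the NT-KO females. The 2 male NT-KO libraries differed from each other at every synthesis gene, with a median of 1.14 log2 units and replicate 2 higher at 16 of 16. The 2 female NT-KO libraries differed by a median of 0.48 log2 units the other way, with replicate 2 higher at only 1 of 16, Idi1. The WT pairs were closer, at medians of 0.10 in males and 0.22 in females. Over the 8 libraries the 120 pairs of synthesis genes all correlated positively, with a median Pearson r of 0.83 and a range of 0.03 to 0.98. After the group means were removed all 120 were still above 0, with a median of 0.87. These correlations are a description over 8 libraries whose points share group and depth. With the group means removed, the 2 libraries of a group mirror each other, so each group gives only its replicate gap. The widest of these gaps, in male NT-KO, went the same way at all 16 genes, so values within groups lean on that pair. Cyp51, Fdft1 and Lss tracked the mean of the other synthesis genes most closely within groups, at r = 0.997, 0.989 and 0.987, and Ebp least, at r = 0.58.

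The promoters of the synthesis genes hold the letters of known SREBP2 partner sites more often than promoters at large. RefSeq (GRCm38.p6) gave the 250 bases before the start for 24 of the 30 genes, 13 of the 16 synthesis genes among them, out of 27025 genes with such a window. The box of NF-Y, a factor that binds beside SREBP2, was searched as CCAAT on both strands and was present in 12 of the 13 synthesis genes, against 37.5% of all genes. The Sp1 box, searched as GGGCGG on both strands, was also in 12 of 13, against 35.4% of all genes. Neither box was particular to synthesis, since of all 24 genes with a window 20 had the NF-Y box and 19 the Sp1 box. The genes at large were not limited to those expressed in liver or matched for base content. The strict sterol response element TCACNCCAC was found in 1 gene, Hmgcs1, against 1.22% of all genes, and a looser form without the first base, CACNCCAC, in Acat2, Hmgcs1 and Insig1, against 6.05% of all genes. The direct repeat bound by LXR was in none of the 24, and in 0.0148% of all genes. A match is a description of letters, and where none was found nothing follows about the factor.

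The windows of 3 genes are printed as examples, chosen after their values were seen: Hmgcs1 and Mvd with wide spans between libraries and Ebp with the narrowest of the 16. Each reads 5′ to 3′ up to the base before the start, and capitals mark CCAAT or its reverse complement ATTGG and, in Hmgcs1, the sterol response element at 137 to 129 bases before the start.
Hmgcs1, chr13:119690101-119690350, plus strand: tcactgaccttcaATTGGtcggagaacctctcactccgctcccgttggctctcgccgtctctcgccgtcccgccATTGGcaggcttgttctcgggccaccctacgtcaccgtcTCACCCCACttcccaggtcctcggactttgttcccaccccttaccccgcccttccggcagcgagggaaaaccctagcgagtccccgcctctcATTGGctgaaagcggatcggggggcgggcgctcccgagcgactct
Mvd, chr8:122443423-122443672, minus strand: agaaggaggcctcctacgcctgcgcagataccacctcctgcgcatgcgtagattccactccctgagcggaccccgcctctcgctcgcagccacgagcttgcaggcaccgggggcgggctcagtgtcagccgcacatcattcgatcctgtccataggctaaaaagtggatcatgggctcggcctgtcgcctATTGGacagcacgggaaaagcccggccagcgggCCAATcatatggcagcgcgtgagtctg
Ebp, chrX:8193513-8193762, minus strand: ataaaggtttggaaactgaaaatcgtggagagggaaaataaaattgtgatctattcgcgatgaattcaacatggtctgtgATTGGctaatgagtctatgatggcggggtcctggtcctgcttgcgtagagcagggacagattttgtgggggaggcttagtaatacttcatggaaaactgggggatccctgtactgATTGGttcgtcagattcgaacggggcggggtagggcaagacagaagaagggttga
Hmgcs1 has 3 such NF-Y boxes, and Mvd and Ebp have 2 each. Over the windows of the 13 synthesis genes the number ran from 0 in Acat2 to 5 in Mvk.

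The genes of SREBP2 control were steadier than the enzymes, apart from Insig1. Srebf2 had 34.9 and 30.5 CPM in the WT males and 29.4 and 37.6 CPM in the NT-KO males, beside 42.1 and 40.4 CPM in the WT females and 49.04 and 37.1 CPM in the NT-KO females, and its spread over the 8 libraries was 1.67 fold. Scap, the sterol sensor that escorts SREBP2, had 72.5 and 66.3 CPM in WT against 89.6 and 85.7 CPM in NT-KO for males, and 82.4 and 85.9 CPM against 76.1 and 79.3 CPM for females. Scap lay above WT in both male NT-KO libraries and below WT in both female NT-KO libraries, by small steps; 9.96% of its exonic 50-base stretches also occur in an opposite-strand transcript. Insig1, itself a target of SREBP2 and a retention factor, had 219 and 297 CPM in the WT males and 365 and 432 CPM in the NT-KO males, beside 335 and 419 CPM in the WT females and 589 and 408 CPM in the NT-KO females. Insig2, the other retention factor, had 105 and 81.8 CPM in WT against 82.2 and 85.8 CPM in NT-KO for males, and 80.4 and 70.7 CPM against 103 and 102 CPM for females. Insig1 was lowest in the 2 male WT libraries and highest in female NT-KO replicate 1. Over the 8 libraries it correlated with the mean of the synthesis genes at r = 0.85, Srebf2 at 0.75, Scap at 0.42 and Insig2 at -0.07. With the group means removed the values were 0.71 for Insig1, 0.78 for Srebf2, -0.49 for Scap and -0.05 for Insig2. The correlation of Insig2 with Insig1 over the 8 libraries was -0.03.

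Among uptake and lysosomal genes, Npc2 and Lipa lay higher in females than in males. Npc2, which hands cholesterol over in the lysosome lumen, had 63.02 and 60.6 CPM in the WT males and 78.6 and 70.1 CPM in the NT-KO males, beside 88.2 and 104 CPM in the WT females and 99.4 and 108 CPM in the NT-KO females. Lipa, the lysosomal acid lipase that frees cholesterol from its esters, had 144 and 113 CPM in WT against 146 and 183 CPM in NT-KO for males, and 153 and 205 CPM against 208 and 257 CPM for females. All 4 female libraries exceeded all 4 male libraries for Npc2, and for Lipa the female WT replicate 1 library overlapped the males. Npc1, the membrane partner of Npc2, ranged from 84.8 CPM in female NT-KO replicate 1 to 159 CPM in the other library of that group. Mylip, the ligase that degrades lipoprotein receptors, was low at 4.17 to 10.2 CPM.

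Stard4, a cytosolic sterol carrier, had 110.3 ± 32.8 CPM (SD, n = 2) in the WT males and 136 ± 41.9 in the NT-KO males, and 122 ± 16.01 and 128 ± 17.8 in the WT and NT-KO females. All 4 groups overlapped. Soat2, which esterifies cholesterol in hepatocytes, had 23.4 and 19.7 CPM in the WT males and 48.5 and 32.9 CPM in the NT-KO males, beside 36.1 and 42.2 CPM in the WT females and 36.7 and 43.98 CPM in the NT-KO females. Soat2 was lowest in the 2 male WT libraries, and both male NT-KO libraries were above them.

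The exporters did not share a single pattern. Abcg5 and Abcg8, the partners of the transporter that sends cholesterol into bile, are neighbouring genes that start close together on opposite strands of chromosome 17. Abcg5 had 69.8 and 46.4 CPM in WT against 149 and 65.5 CPM in NT-KO for males, and 151 and 131 CPM against 121 and 135 CPM for females. Abcg8 had 59.9 and 35.7 CPM in the WT males and 119.8 and 57.5 CPM in the NT-KO males, beside 107 and 118 CPM in the WT females and 72.2 and 96.95 CPM in the NT-KO females. Both were lowest in the male WT libraries and male NT-KO replicate 2 and highest or nearly so in male NT-KO replicate 1, and their correlation over the 8 libraries was 0.95. Abca1, which loads cholesterol onto apolipoprotein A-I, had 210.5 and 183 CPM in WT against 113 and 176 CPM in NT-KO for males, and 83.9 and 98.8 CPM against 93.5 and 114 CPM for females. It was highest in male WT and lowest in female WT, opposite to Abcg5, with which it correlated at r = -0.89 over the 8 libraries. After the group means were removed, Abcg5, Abcg8 and Soat2 correlated with the mean of the synthesis genes at r = -0.89, -0.84 and -0.82, but Abca1 at r = 0.60. Over the 8 libraries with the group means kept, the values were 0.23, 0.17 and 0.42, and -0.42 for Abca1. Removing the means leaves only the gap between the replicates of each group, and the synthesis gap was widest in male NT-KO. In female WT, Abcg8 and Soat2 rose with most synthesis genes from replicate 1 to replicate 2, by 1.11 and 1.17 fold. In male NT-KO replicate 1, with the low synthesis genes, Abcg5 was at 149 CPM, and in replicate 2, with the high synthesis genes, at 65.5 CPM.

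**Figure D2:**
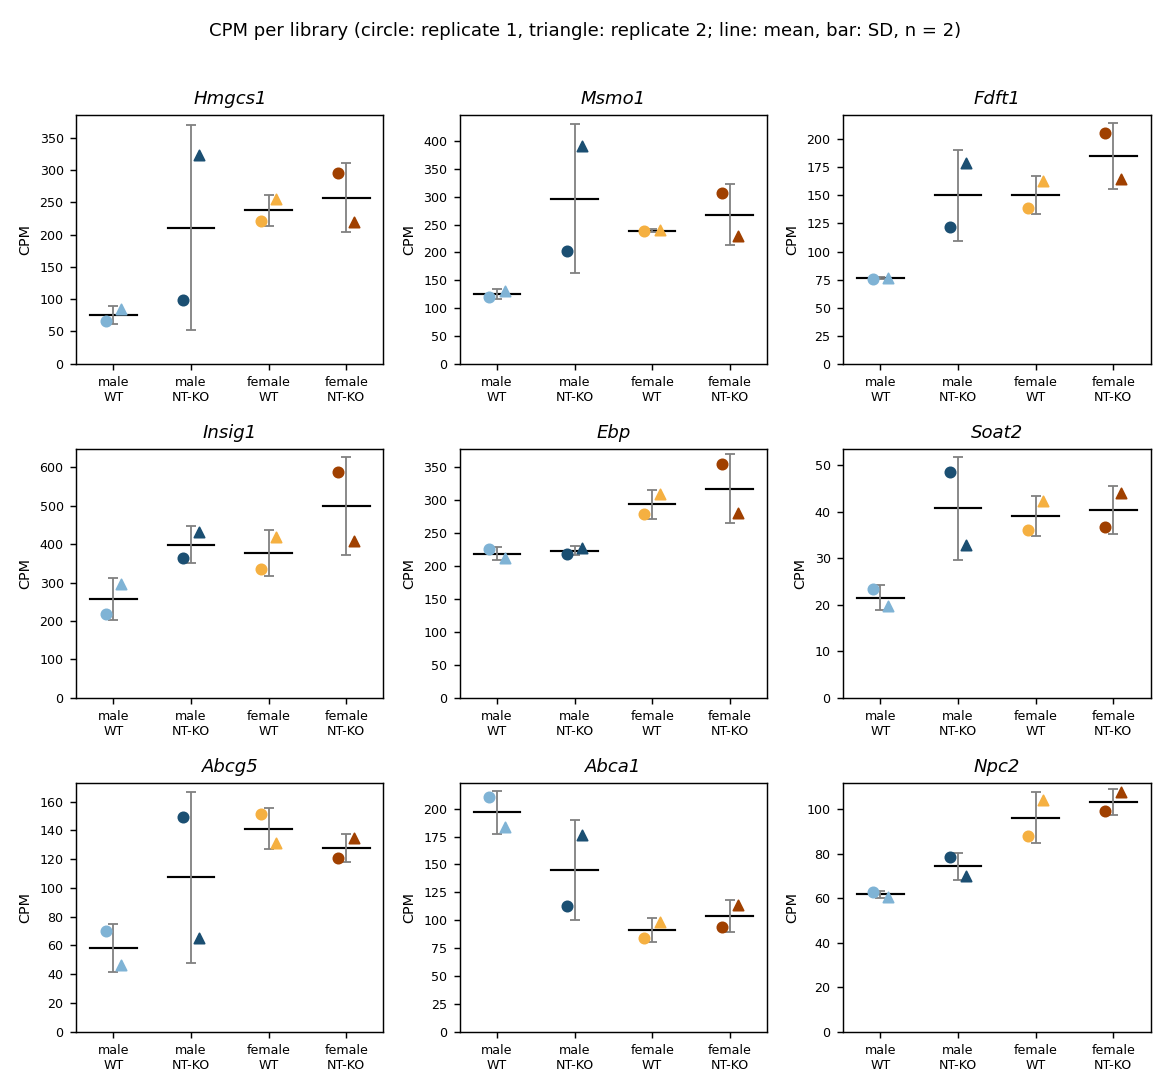
CPM of 9 of the genes in each library (y axis from 0) for the 4 groups (x axis); circles are replicate 1, triangles replicate 2, the line is the mean and the bar the SD of 2 libraries. In Hmgcs1 and Msmo1 the 2 male NT-KO libraries lie far apart, in Ebp and Npc2 the females lie above the males, and in Abca1 male WT is highest.

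The first comparison asked which of the 30 genes differed between NT-KO and WT in male livers. All 16 synthesis genes had a positive fold change, with a median of 0.70 log2 units against 0.01 over all tested genes, but none of the 30 genes passed the test. A call in edgeR's quasi-likelihood test needed a false discovery rate (FDR) up to 0.05 and a log2 fold change beyond 1 either way. By this rule 0 of 30 genes were called, against 0.0152% of the tested genes. With edgeR's likelihood ratio test 1 was called, Msmo1, and DESeq2 called 3, Hmgcs1, Pmvk and Msmo1. The quasi-likelihood test without the filter on low counts called the same 3. More genes passed the FDR alone at large in these settings too, at 254, 308 and 917 in turn, against 2 in the main test. At an unadjusted p under 0.05, 11 of the 30 were higher in NT-KO and none was lower, where 6.03% of the tested genes were higher at that level. The 11 were the synthesis genes Hmgcs1, Pmvk, Fdft1, Msmo1, Hsd17b7 and Sc5d, the control genes Insig1 and Scap, the esterifying Soat2, and Abcg5 and Abcg8. Both NT-KO libraries exceeded both WT libraries at 15 of the 30, 9 of them synthesis genes, where 19.6% of all tested genes did.

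The log2 fold change was 0.98 ± 0.22 (SE, n = 2 per group, edgeR FDR = 0.21) for Fdft1 and 1.25 ± 0.30 (FDR = 0.228) for Msmo1. Hmgcs1 had the largest, at 1.48 ± 0.47 (edgeR FDR = 0.31), with a wide error from the gap between its NT-KO libraries. Soat2 followed Fdft1 in unadjusted p, with 0.92 ± 0.22 (edgeR FDR = 0.219). The remaining 7 of the 11 had log2 fold changes from 0.34 for Scap to 1.24 for Pmvk. Of the genes that did not reach an unadjusted p of 0.05, Abca1 had -0.44 ± 0.24 log2 units, with both NT-KO libraries below both WT libraries, and Ebp, Srebf2 and Ggps1 had 0.03, 0.04 and -0.03. The size for the synthesis genes depended on the NT-KO library: their median was 1.27 log2 units without male NT-KO replicate 1 and 0.14 without replicate 2, and 11 of 16 fitted fold changes were then positive. In that last setting the extremes were -0.73 for Idi1 and 0.68 for Msmo1. The fold changes of Abcg5 and Abcg8 leaned on the other library, at 0.17 and 0.27 without male NT-KO replicate 1 and 1.36 and 1.32 without replicate 2.

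In females the same comparison gave smaller values. The median of the 16 synthesis genes was 0.15 log2 units, with 15 of 16 differences of mean log2 CPM above 0, against -0.00 over all tested genes. None of the 30 genes was called by edgeR's quasi-likelihood test (0.00762% of the tested genes were), nor by its likelihood ratio test or by DESeq2. At an unadjusted p under 0.05 stood 1 gene of 30, Insig2, against 1.55% of the tested genes in either direction. Insig2 was higher in NT-KO by 0.44 ± 0.17 log2 units (SE, n = 2 per group, edgeR FDR = 1). The groups did not overlap at 6 of the 30, against 26.4% of the tested genes: Fdft1, Insig2 and Lipa were higher in both NT-KO libraries and Scap, Mylip and Abcg8 lower. Among these, Fdft1 had 0.30 ± 0.22 and Abcg8 -0.41 ± 0.36 log2 units. The median of the synthesis genes was below 0 without female WT replicate 1, at -0.0033, and without female NT-KO replicate 1, at -0.13, and it was 0.41 without female NT-KO replicate 2.

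The difference between the sexes in the effect of NT-KO was tested as an interaction in the fit of all 8 libraries. None of the 30 genes reached an FDR of 0.05 in edgeR's quasi-likelihood test, where 0.0152% of the tested genes did, and none did in its likelihood ratio test or in DESeq2. At an unadjusted p under 0.05 were 4 of 30, against 7.2% of the tested genes. The NT-KO effect of Msmo1, Soat2 and Abcg8 was lower in females, by -1.08 ± 0.43, -0.87 ± 0.31 and -1.30 ± 0.51 log2 units (females minus males, SE, edgeR FDR = 0.66, 0.641 and 0.66). That of Insig2 was higher in females, by 0.59 ± 0.24 log2 units (edgeR FDR = 0.671). Without the filter on low counts 3 of the 30 did reach an FDR of 0.05, Hmgcs1, Pmvk and Abcg8. Their values were -1.37, -1.14 and -1.30 log2 units (edgeR FDR = 0.00367, 0.0170 and 0.00404). In that setting 552 genes at large reached it, against 2 in the main test.

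**Figure D3:**
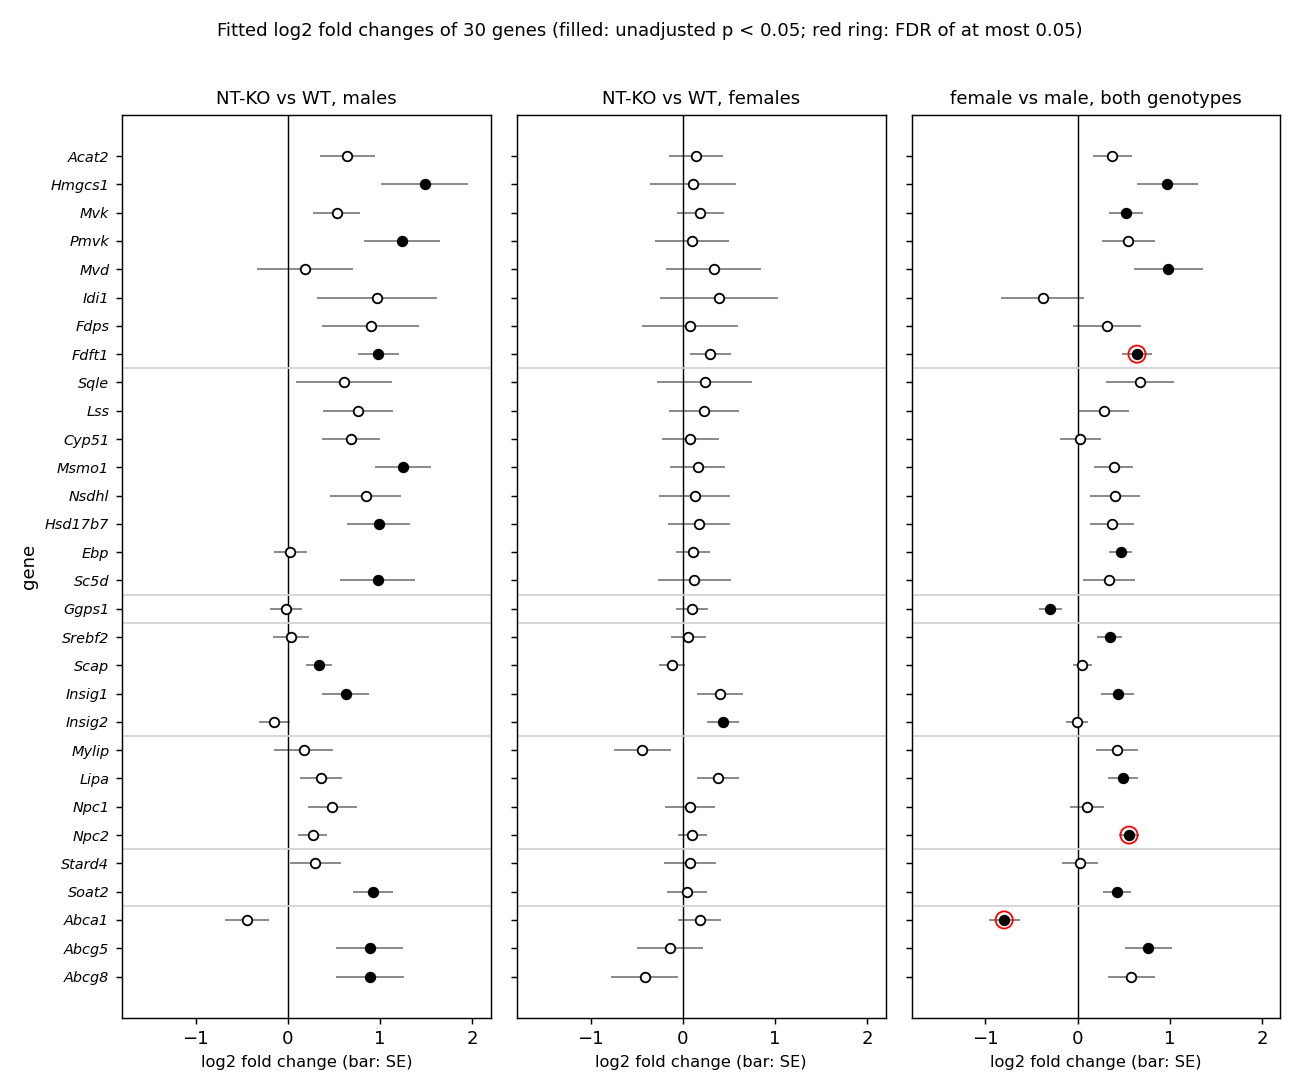
Fitted log2 fold changes (x axis, points with SE bars) of the 30 genes (y axis, grouped by role) for NT-KO against WT in males and in females and for females against males; filled points have an unadjusted p under 0.05 and red rings an FDR of at most 0.05. The male panel holds 11 filled points, all to the right of 0, the female panel 1, and the panel of the sexes 13, of which Fdft1, Npc2 and Abca1 carry rings.

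The last comparison set the 4 female libraries against the 4 male libraries, both genotypes together. None of the 30 genes passed both thresholds in edgeR's quasi-likelihood test, which 4.19% of the tested genes did, and none did in its likelihood ratio test or in DESeq2. By the FDR of at most 0.05 alone in the quasi-likelihood test 3 of the 30 passed, against 7.84% of the tested genes: the squalene synthase Fdft1 and the lysosomal Npc2 were higher in females and the exporter Abca1 was lower. By FDR alone the likelihood ratio test passed 6, adding Ebp, Hmgcs1 and Abcg5, and DESeq2 passed 7, adding Lipa to those 6. The quasi-likelihood test without the filter on low counts passed 11. More genes passed at large in these settings too, at 1757, 1849 and 2722 in turn, against 1028 in the main test. At an unadjusted p under 0.05 were 13 of 30, 11 higher and 2 lower in females, where 26.9% of the tested genes were in either direction. All 4 female libraries exceeded all 4 male libraries at 2 of the 30, Ebp and Npc2, against 8.5% of the tested genes.

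Npc2 was higher by 0.56 ± 0.11 log2 units in females (SE, n = 4 per sex, edgeR FDR = 0.0222). Fdft1 was higher by 0.64 ± 0.16 (edgeR FDR = 0.0453). Abca1 had a difference of -0.80 ± 0.17 log2 units (edgeR FDR = 0.0286), and male NT-KO replicate 1 came within the range of the females. With each of the 8 libraries left out in turn, Fdft1 stayed under an FDR of 0.05 only without male NT-KO replicate 2, Abca1 only without either male NT-KO library, and Npc2 only without male NT-KO replicate 1 or female WT replicate 1. The FDR then ran up to 0.0956 for Npc2 and 0.145 for Fdft1 without female WT replicate 2, and 0.108 for Abca1 without female NT-KO replicate 1. Over all alternatives run, the lowest FDR was 0.000685 for Npc2, 0.00161 for Fdft1 and 4.52e-05 for Abca1. Ebp had 0.47 ± 0.13 (edgeR FDR = 0.0634), and Hmgcs1, Mvd and Abcg5 had values of 0.97, 0.99 and 0.77 log2 units with FDR of 0.11, 0.136 and 0.103.

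The median of the 16 synthesis genes was 0.43 log2 units higher in females, against -0.00 over all tested genes, and it depended on the genotype. In WT alone it was 0.75 and in NT-KO alone 0.10, and over both genotypes it was 0.18 without male NT-KO replicate 1 and 0.68 without replicate 2. In WT both female libraries exceeded both male libraries at 25 of the 30 genes, 15 of them synthesis genes, where 31.4% of the tested genes did; only Idi1 of the synthesis genes overlapped. Within WT 1 of the 30 genes was called, Abca1, at -1.11 ± 0.24 log2 units (edgeR FDR = 0.0374), against 4.68% of the tested genes. Fdft1 also had an FDR under 0.05 there, at 0.99 ± 0.22 log2 units (edgeR FDR = 0.0422), while Hmgcs1 with 1.66 ± 0.48 and Abcg5 with 1.28 ± 0.36 did not. The male WT libraries enter both this comparison and that of NT-KO against WT in males. The members' values in the 2 are set side by side here without a test: Hmgcs1 had 1.48 for NT-KO against WT in males and 1.66 for females against males in WT, Soat2 had 0.92 and 0.86, and Abca1 -0.44 and -1.11.

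A second list held 30 other genes of sterol handling, such as the Gramd1 sterol carriers, the site proteases of SREBP2 and the LXR genes. The median of this list showed no such shift. None of its 30 genes was called in males, in females, in the interaction or between the sexes. Its median was 0.01 log2 units in males with 16 higher and 14 lower, 0.01 in females with 17 higher and 13 lower, and 0.02 between the sexes with 16 higher and 14 lower. At an unadjusted p under 0.05 it had 6 genes in males, 3 higher and 3 lower, where 6.03% of the tested genes were higher. In females it had none, against 1.55% of the tested genes. Between the sexes it had 12, 7 higher and 5 lower, beside 13 of the 30 cholesterol genes and 26.9% of the tested genes. Of the second list 1 higher and 1 lower gene had an FDR up to 0.05 there. In the interaction both lists had 4, against 7.2% of the tested genes.

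Other gene lists differed between the libraries too, and the lipogenic list shared its highest library with the synthesis genes. The 12 lipogenic genes that rise on feeding, targets of SREBP1c and ChREBP, had mean log2 CPM relative to the 8-library mean of -0.25 and -0.42 for the WT males, -1.33 and 0.96 for the NT-KO males, -0.41 and 0.58 for the WT females and 0.71 and 0.15 for the NT-KO females. The 16 synthesis genes on the same scale had -0.66 and -0.51 for the WT males, -0.45 and 0.68 for the NT-KO males, 0.01 and 0.31 for the WT females and 0.61 and 0.03 for the NT-KO females. In both lists the highest library was male NT-KO replicate 2, whereas male NT-KO replicate 1 was the lowest library of the lipogenic list only. Female NT-KO replicate 1 came next in both lists by these means. By the median over the lipogenic genes female WT replicate 2 came next instead, at 0.55 against 0.49 for female NT-KO replicate 1. By summed CPM female WT replicate 2 also came next, at 14269 CPM against 11519 CPM. The 11 genes that rise on fasting had means of -0.78 and -1.09 for the WT males, -0.13 and -0.55 for the NT-KO males, 1.05 and 0.52 for the WT females and 0.43 and 0.54 for the NT-KO females. By these means the list was lowest in male WT, and in each of the 4 groups its higher library had the lower synthesis genes. By the median over the list neither held. Female NT-KO then had 0.36 in replicate 1 and 0.26 in replicate 2. Male WT replicate 1 at -0.23 lay above male NT-KO replicate 2 at -0.36. Spans between libraries within the fasting list ran up to 659 fold. Of 5 early-phase clock genes 4 were tested, all but Npas2, and their means were 0.84 and 0.98 for the WT males, 0.10 and -0.06 for the NT-KO males, -0.49 and -0.79 for the WT females and -0.00 and -0.57 for the NT-KO females, so that the 2 male WT libraries stood above the other 6.

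**Figure D4:**
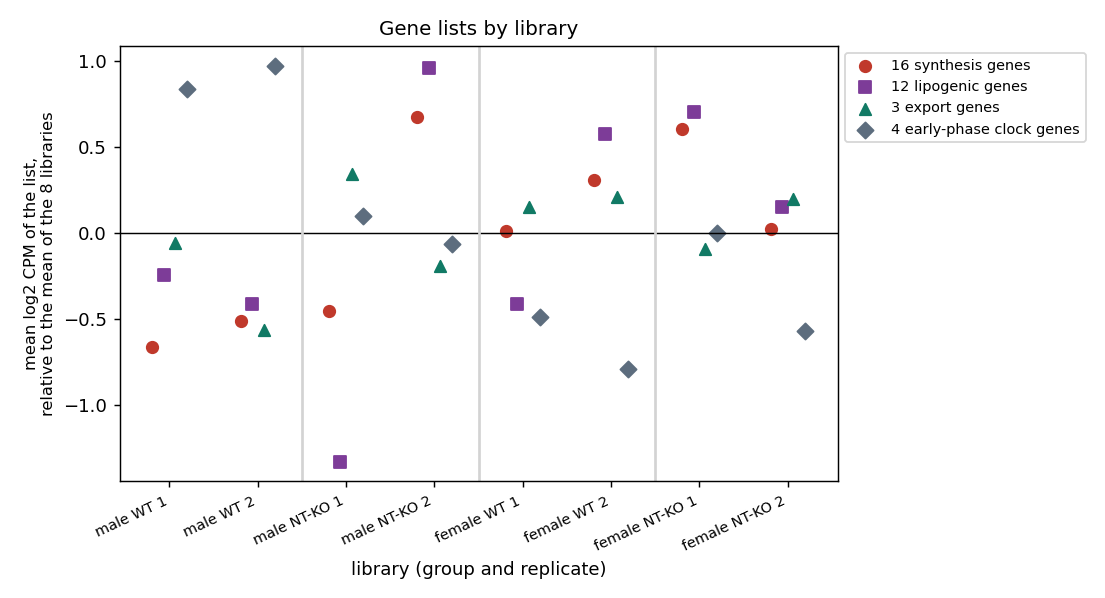
Mean log2 CPM of 4 gene lists, each gene relative to its mean over the 8 libraries (y axis), in each library (x axis). Lipogenic and synthesis genes are both highest in male NT-KO replicate 2, and the early-phase clock genes are highest in the male WT libraries. The mean of the 3 export genes runs against the first 2 lists within the NT-KO groups, though Abca1 alone rose with them in male NT-KO.

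Markers of other cells also differed between the groups. The 7 blood markers, globins among them, summed to 1027 and 489 CPM for the WT males, 406 and 406 for the NT-KO males, 203 and 197 for the WT females and 348 and 188 for the NT-KO females, highest in male WT, and all 7 were detected in every library. The 6 B cell markers summed to 7.72 and 6.06 CPM for the WT males, 16.04 and 62.02 for the NT-KO males, 24.5 and 24.8 for the WT females and 9.56 and 13.7 for the NT-KO females. This sum was lowest in male WT and highest in male NT-KO replicate 2, and none of the markers was at 0. By mean log2 CPM relative to the 8-library mean the WT females were highest, at 0.93 and 0.80, against 0.70 for male NT-KO replicate 2. The 8 Kupffer cell markers summed to between 184.7 and 403.6 CPM, the 7 sinusoidal endothelial markers to between 158.6 and 307.6 CPM and the 7 stellate cell markers to between 260.2 and 358.2 CPM, with the lowest sum of each in a male WT library. Cholangiocyte markers, 5 of 6 tested, summed to between 29.3 and 65.8 CPM. The part of feeding state, time of day and cell makeup in the values of the cholesterol genes was not tested.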

How the data were processed

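Liver RNA libraries were prepared with the Illumina TruSeq kit, and per the labels and methods the authors trimmed reads with cutadapt, aligned with STAR 2.6.1a and counted with featureCounts against the Ensembl gene models of GRCm38. The deposited values are raw counts of 49671 genes in 8 libraries of 45020377 to 64396291 counts, so 3 counts, a floor that covers counting error only, correspond to 0.0477 to 0.0767 CPM on the scaled totals used here. Strand setting and treatment of multiply mapped reads were not given in the sources used here. Symbols, coordinates and exon lengths came from GENCODE on the same build, with 259 identifiers unmatched. The fit kept genes reaching 1 CPM in 2 or more libraries, without rRNA, miRNA and mitochondrial genes, leaving 13117. Counts were fitted with edgeR 4.0.16 in R 4.3.3, with TMM factors (0.921 to 1.05), 1 mean per group over all 8 libraries, and the quasi-likelihood F test with Benjamini-Hochberg FDR over all tested genes. A call needed an FDR up to 0.05 and a log2 fold change beyond 1 either way, and the interaction by FDR alone. The SE is the fold change divided by the root of F. List medians used differences of group means of log2 CPM with a prior count of 2. Alternatives included the likelihood ratio test, DESeq2 1.42.0, other scalings, filters and thresholds, a replicate block, 1 sex alone and the loss of each library; females against males within each genotype, and the loss of both highest NT-KO libraries together, were added after the data were seen. With 2 libraries against 2 an exact permutation test cannot go below 0.333, so none was run. The fit was tested on simulated data. All 30 genes are named; they and the gene lists were chosen with earlier results of these data known.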

Additional observations from a re-analysis of the deposited data

Results flagged for a closer look

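Scap, the sterol sensor that escorts SREBP2, was flagged because both NT-KO libraries lay above WT in males and below WT in females. Its NT-KO effect in females minus that in males was -0.45 log2 units, and the interaction itself had an edgeR FDR of 0.688, so the difference did not pass. The fold changes were 0.34 ± 0.14 in males and -0.12 ± 0.14 in females (SE, n = 2 per group). The part of the overlapping opposite-strand transcript in these counts was not tested. Groups of 2 libraries are too small to test a single library as an outlier.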

How the results depend on the processing

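The counts of called genes were 0 in every comparison, and none was called in females under any alternative. In males 1 gene was called by the likelihood ratio test, 3 by DESeq2 and 3 without the low count filter. Leaving that filter out also called 3 in the interaction. By FDR alone these settings passed 254, 308 and 917 of all genes in males, and leaving out the filter passed 552 in the interaction. Between the sexes 3 were called with no minimum fold change and 1 within WT alone, and 0 to 1 with a library left out; 1 appeared without male NT-KO replicate 1, Abcg5, and 1 without replicate 2, Hmgcs1. The median of the 16 synthesis genes in males ran from 0.14 to 1.27 log2 units with a library left out, in females from -0.13 to 0.41, and between the sexes from 0.18 to 0.68. Without both highest NT-KO libraries, male NT-KO replicate 2 and female NT-KO replicate 1, it was 0.14 in males, -0.13 in females and 0.56 between the sexes. The cause of these shifts was not tested. Scaling by library size alone moved the median of all genes between the sexes to 0.13 log2 units; that of the synthesis genes lay 0.44 above it, as under TMM. Same-numbered libraries of WT and NT-KO did not deviate together (r = -0.01 in males, 0.02 in females), so the numbers were not taken as pairs. With the replicate number as a block the called genes were 0 in every comparison, Fdft1 between the sexes had an edgeR FDR of 0.0567, while Abca1 and Npc2 stayed under 0.05, and the medians of the fitted fold changes 0.77, 0.18 and 0.43. The lowest count of any of the 30 genes in a library was 163, for Mylip, far above the floor of 3 counts.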
